A study of Homo sapiens with 10 samples.

Results

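The 38 genes described here belong to the integrated stress response and to the supply of amino acids, and they were chosen by name as a module. Each gene was found in the count tables by its Ensembl identifier, so the module makes up 38 of the 57820 identifiers measured. All 38 were among the 16006 genes that passed the filter on low counts, although ALDH1L2 passed only through HD-MB03 and NUPR1 stayed low in most libraries. The genes were read in 7 roles: 3 genes of eIF2 kinases and a phosphatase subunit, 7 transcription factors, 6 stress effectors, 6 enzymes of serine, glycine and one-carbon metabolism, 5 enzymes of asparagine, proline and cysteine metabolism, 6 amino acid transporters and 5 aminoacyl-tRNA synthetases.

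In the integrated stress response, kinases that sense endoplasmic reticulum stress (PERK, encoded by EIF2AK3), uncharged tRNA (GCN2, encoded by EIF2AK4) and other insults phosphorylate the initiation factor eIF2. General translation then slows while the mRNA of the transcription factor ATF4 is translated more, and ATF4 with C/EBP partners switches on genes that import amino acids, make them and charge them onto tRNA. When the stress lasts, the ATF4 target DDIT3, which encodes CHOP, adds effectors linked to cell death, and PPP1R15A, which encodes GADD34, brings a phosphatase back to eIF2. ATF4 itself is therefore controlled largely at translation, which mRNA counts do not read.

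Poly(A) RNA was sequenced in 10 libraries of D425 and HD-MB03, established cell lines of Group 3 medulloblastoma, a childhood tumour of the cerebellum. Hairpins against CRX were delivered in Tet-pLKO-puro, a doxycycline-inducible lentiviral vector, and the transduced populations were stable and polyclonal. The protocol given with every sample is 4 µg/ml doxycycline over 72 h, in medium with serum. D425 had 3 libraries with a hairpin (shCRX), and as controls 2 libraries of parental cells and 1 of cells with the empty vector. HD-MB03 had 2 libraries labelled shCRX, and as controls 1 parental and 1 vector library. Values of controls are given below with the parental libraries before the vector library, and those of shCRX in the order of their replicate numbers. Of the pair of independent hairpins, none is assigned to a library in the labels. Whether the cultures were separate is not stated, and the spread behind each p-value may therefore be technical only. In bulk RNA, fewer cells of a type and less RNA per cell cannot be told apart.

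Between 1956353 and 18061910 reads were counted on genes per library, and the HD-MB03 controls were the shallowest, with 26.4% and 30.9% of their reads not aligned. The numbers by which the deposited libraries are named fall into a lower set (D425 shCRX and HD-MB03 control) and a higher set (D425 control and HD-MB03 shCRX), so that in either line a set of numbers cannot be told apart from an arm. Summed levels of 7 genes typical of Group 3 medulloblastoma ran from 2930 to 4600 CPM (counts scaled to a library of 1000000) in D425 shCRX, 5426 to 6321 in D425 controls, 7291 to 7535 in HD-MB03 shCRX and 7035 to 8846 in HD-MB03 controls. Of the leukocyte markers, 4 of 5 lay at or under a floor of 3 counts in every library, and their sum reached 10.7 CPM in D425 controls. Of the fibroblast markers 0 of 5 did, with sums up to 33.8 CPM in HD-MB03 controls. Of the Group 3 genes 1 of 7 lay at or under that floor in every library. CRX, the targeted transcription factor of photoreceptors, had 20.3, 20.9 and 25.3 CPM in D425 shCRX libraries and 47.4, 29.6 and 64.8 CPM in D425 controls, against 27.7 and 23.5 CPM in HD-MB03 shCRX libraries and 12.5 and 12.3 CPM in HD-MB03 controls. It was lower in all D425 shCRX libraries than in the D425 controls (log2 fold change -1.10 ± 0.26 SE, edgeR adjusted p = 0.0436), and higher in the HD-MB03 libraries labelled shCRX than in their controls, against the label (1.04 ± 0.36 SE, adjusted p = 0.174). The D425 call of CRX was lost in 9 of the 10 fits that left out 1 library (adjusted p from 0.0533 to 0.171) and held without D425 parental replicate 2 (0.00890). Directions in HD-MB03 below follow that label.

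The largest contrast in the module was between the lines. Of the 38 genes, 24 were higher and 3 were lower in D425 than in HD-MB03 in the mean of the arms, at a Benjamini-Hochberg adjusted p under 0.05 in edgeR's quasi-likelihood test. Of all 16006 genes tested, 46.0% passed in either direction, 24.4% higher and 21.6% lower in D425. The median log2 fold change of the 38 genes was 1.04, and that of all genes was 0.05. ALDH1L2 had 0 counts in D425 shCRX, and without it the median of the remaining 37 was likewise 1.04. At an unadjusted p under 0.05 there were 29 members, against 53.0% of all genes. In 10 members every D425 library lay above every HD-MB03 library and in 1 every D425 library lay below, against 15.3% and 13.8% of all genes. The share of members higher in D425 was spread over the roles: 4 of 7 transcription factors, 4 of 6 stress effectors, 3 of 6 serine and one-carbon enzymes, 4 of 5 asparagine, proline and cysteine enzymes, 5 of 6 transporters and 4 of 5 synthetases passed in that direction, and none of the 3 eIF2 kinase and phosphatase genes did in either.

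**Figure D1:**
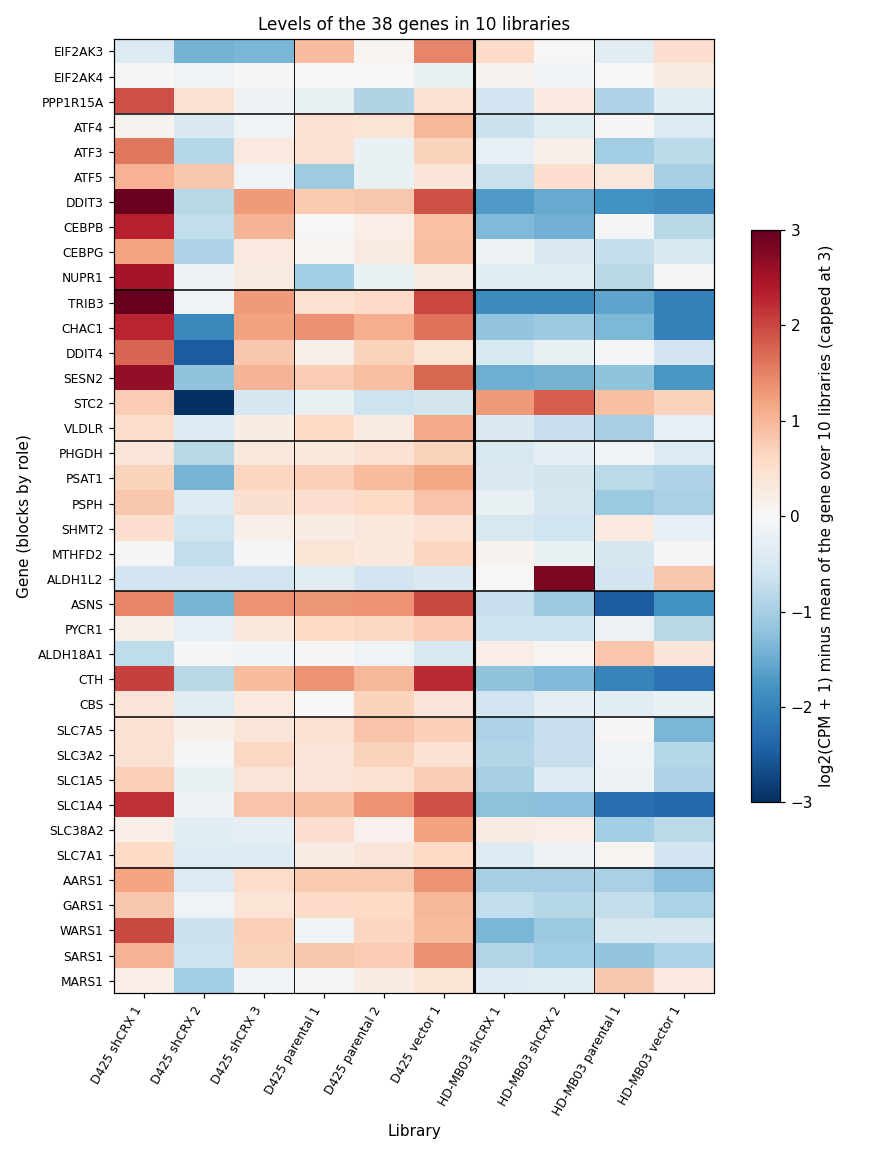
Levels of the 38 genes (rows, in blocks by role) in the 10 libraries (columns, D425 left of HD-MB03 and shCRX left of control). Colour gives log2(CPM + 1) minus the mean of the gene over the 10 libraries, capped at 3. D425 libraries are mostly red and HD-MB03 libraries mostly blue, and the column of D425 shCRX replicate 2 is paler or blue where the other D425 columns are red.

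The kinase genes EIF2AK3 and EIF2AK4 and the phosphatase subunit gene PPP1R15A did not pass between the lines. EIF2AK4, the GCN2 gene, was nearly level across all libraries, between 95.5 and 128 CPM, with a log2 fold change between lines of -0.10 ± 0.13 SE (95% interval -0.38 to 0.18). EIF2AK3 and PPP1R15A had -0.27 ± 0.32 SE and 0.83 ± 0.44 SE. For EIF2AK3 that value averages D425 arms that lay apart, 6.81 to 14.7 CPM in shCRX and 21.3 to 56.6 CPM in controls. Its HD-MB03 libraries ran from 15.6 to 30.5 CPM.

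Among the transcription factors, ATF4 mRNA differed by less between the lines than DDIT3 and CEBPB. ATF4 had 647, 439.8 and 551 CPM in D425 shCRX libraries and 819, 797 and 1186 CPM in D425 controls, against 383 and 462 CPM in HD-MB03 shCRX libraries and 611 and 448 CPM in HD-MB03 controls. D425 controls were the highest group and D425 shCRX libraries overlapped both HD-MB03 arms. The values of ATF4, EIF2AK3, SLC38A2, CHAC1 and DDIT4 in single libraries are given although they were chosen after their values were seen. For ATF4 the log2 fold change between lines was 0.59 ± 0.18 SE (adjusted p = 0.0157). DDIT3, the gene of the pro-apoptotic factor CHOP, had 155, 10.1 and 46.7 CPM in D425 shCRX libraries and 33.3, 33.7 and 73.6 CPM in D425 controls, against 5.14 and 6.01 CPM in HD-MB03 shCRX libraries and 4.68 and 4.28 CPM in HD-MB03 controls. All 6 D425 libraries lay above all 4 HD-MB03 libraries, and the log2 fold change was 3.53 ± 0.68 SE (adjusted p = 0.00145). DDIT3 shares 62 exon bases with MARS1 on the opposite strand, and without a stated strand setting reads there are uncertain. With AC022506.1, a protein-coding gene on the same strand, it shares 105 exon bases, which may include those shared with MARS1 and which a strand setting would not separate. Overlaps here and below are those of GENCODE v29 on GRCh38. The counts were made on GRCh37, and whether the annotation used for them held the same genes is not known. In all, 15 of the 38 members share exon bases with another annotated gene, 6 of them with a protein-coding one. The longest overlaps were 1985 bases of ASNS with a same-strand processed transcript and 1324 of MTHFD2 with SLC4A5 on the opposite strand. CEBPB, a C/EBP partner of ATF4, passed with 1.90 ± 0.51 SE and had a median of 27.4 CPM in D425 and 8.10 CPM in HD-MB03. CEBPG, a C/EBP protein that dimerises with ATF4, passed narrowly (0.89 ± 0.34 SE, adjusted p = 0.0491) and lost the call in 8 of the 10 fits that left out 1 library. The stress-induced factor ATF3 (1.05 ± 0.43 SE), the ATF4 relative ATF5 (0.32 ± 0.41 SE) and the chromatin-associated stress protein gene NUPR1 (1.34 ± 0.79 SE) did not pass. NUPR1 rested on 215 counts in D425 and 36 in HD-MB03.

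The stress effectors had a median log2 fold change of 1.96, the highest of the 7 roles. TRIB3, a pseudokinase induced by ATF4 and CHOP, had 662, 66.1 and 177 CPM in D425 shCRX libraries and 99.8, 109 and 293 CPM in D425 controls, against 19.0 and 19.0 CPM in HD-MB03 shCRX libraries and 23.4 and 17.1 CPM in HD-MB03 controls. SESN2, a leucine-binding sestrin that restrains mTORC1, had 344, 23.1 and 111.3 CPM in D425 shCRX libraries and 92.4, 102 and 183 CPM in D425 controls, against 19.0 and 19.9 CPM in HD-MB03 shCRX libraries and 22.9 and 15.5 CPM in HD-MB03 controls. For both genes every D425 library lay above every HD-MB03 library, narrowly so for SESN2, with log2 fold changes of 3.52 ± 0.62 SE and 2.88 ± 0.60 SE. Without D425 shCRX replicate 1, which was the highest library for TRIB3, SESN2 and DDIT3, these log2 fold changes were 2.90 for TRIB3, 2.29 for SESN2 and 2.90 for DDIT3, all still past the threshold. CHAC1, which degrades glutathione, was higher in D425 by 2.96 ± 0.66 SE, although D425 shCRX replicate 2 with 3.51 CPM lay within the HD-MB03 range of 3.21 to 7.01 CPM. VLDLR, a lipoprotein receptor that is also an ATF4 target, passed with 1.04 ± 0.25 SE. DDIT4, an mTORC1 inhibitor also called REDD1, did not pass (0.97 ± 0.56 SE). STC2, a secreted glycoprotein induced by ATF4, went the other way with -1.58 ± 0.53 SE (adjusted p = 0.0307), from 0.619 to 31.1 CPM in D425 and 29.4 to 65.1 CPM in HD-MB03. Without D425 shCRX replicate 1 its log2 fold change was -2.18, and it lost the call without any one of 7 other libraries.

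The enzymes that make serine and feed one-carbon units had a median of 0.52. PSPH, the last step of serine synthesis, had 96.4, 41.7 and 76.4 CPM in D425 shCRX libraries and 77.8, 84.0 and 99.9 CPM in D425 controls, against 47.0 and 37.5 CPM in HD-MB03 shCRX libraries and 24.9 and 27.3 CPM in HD-MB03 controls. Its log2 fold change was 1.25 ± 0.22 SE, and D425 shCRX replicate 2 alone of the D425 libraries fell within the HD-MB03 range. PSAT1, the step before it, had 94.6 to 560.2 CPM in D425 and 131 to 184 CPM in HD-MB03 (1.28 ± 0.33 SE). PHGDH, which commits glycolytic carbon to serine, passed by 0.58 ± 0.22 SE, a call that ended in 9 of the 10 fits that left out a library. The mitochondrial folate enzymes SHMT2 and MTHFD2 did not pass (0.45 ± 0.20 SE and 0.27 ± 0.18 SE). ALDH1L2, which oxidises formyl folate in mitochondria, was close to silent in D425, with 0 counts over the 3 shCRX libraries and 4 over the 3 controls. In HD-MB03 it had 139 counts over the 2 shCRX libraries, 132 of them in replicate 2, and 3 over the 2 controls, and the call was lost with the HD-MB03 vector library left out. With shCRX replicate 2 of HD-MB03 left out, it did not reach the filter on low counts.

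Among the enzymes of asparagine, proline and cysteine, ASNS and CTH had the largest differences. ASNS, asparagine synthetase, had 687, 94.0 and 640.3 CPM in D425 shCRX libraries and 621, 640.3 and 988 CPM in D425 controls, against 153 and 116 CPM in HD-MB03 shCRX libraries and 43.7 and 70.7 CPM in HD-MB03 controls. Its D425 levels lay above all HD-MB03 libraries except that of shCRX replicate 2, and the log2 fold change was 2.76 ± 0.48 SE (adjusted p = 0.000671). CTH, which releases cysteine from cystathionine, had 276, 36.5 and 128 CPM in D425 shCRX libraries and 168, 133 and 315 CPM in D425 controls, against 27.7 and 25.6 CPM in HD-MB03 shCRX libraries and 15.6 and 13.4 CPM in HD-MB03 controls. No D425 library overlapped HD-MB03 for CTH, with 3.15 ± 0.51 SE. CBS, the step that makes cystathionine, differed by 0.60 ± 0.19 SE. PYCR1, the last step of proline synthesis, had 462, 341 and 509 CPM in D425 shCRX libraries and 614, 631 and 689 CPM in D425 controls, against 263 and 266 CPM in HD-MB03 shCRX libraries and 359.6 and 229.7 CPM in HD-MB03 controls. It was higher in D425 by 0.93 ± 0.17 SE, and ALDH18A1, the enzyme at the start of proline synthesis, was lower in D425 (-0.60 ± 0.18 SE) with no overlap of the lines. The differences of these enzymes of proline synthesis had opposite signs.

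Of the 6 transporters, 5 were higher in D425. SLC1A4, an exchanger of alanine, serine and cysteine, had 169.8, 32.2 and 66.1 CPM in D425 shCRX libraries and 68.8, 92.9 and 139 CPM in D425 controls, against 14.9 and 14.7 CPM in HD-MB03 shCRX libraries and 6.76 and 6.42 CPM in HD-MB03 controls. Its lowest D425 library, at 32.2 CPM, lay above its highest HD-MB03 library, at 14.9 CPM, with a log2 fold change of 3.27 ± 0.46 SE (adjusted p = 0.000168). SLC7A5, the LAT1 carrier of leucine and other large amino acids, had 930.1, 758 and 885 CPM in D425 shCRX libraries and 942, 1250.0 and 1123 CPM in D425 controls, against 359 and 424 CPM in HD-MB03 shCRX libraries and 699 and 263 CPM in HD-MB03 controls. SLC3A2, the CD98 heavy chain that LAT1 pairs with, had 399, 281 and 448 CPM in D425 shCRX libraries and 379.7, 465 and 389.7 CPM in D425 controls, against 158 and 180.2 CPM in HD-MB03 shCRX libraries and 267 and 159.5 CPM in HD-MB03 controls. For both chains of this heterodimer the lines did not overlap, and the log2 fold changes were close, 1.17 ± 0.23 SE and 1.05 ± 0.19 SE. SLC1A5, the glutamine carrier ASCT2, had 394, 211 and 317 CPM in D425 shCRX libraries and 315, 333 and 401 CPM in D425 controls, against 119 and 180.1 CPM in HD-MB03 shCRX libraries and 217 and 127 CPM in HD-MB03 controls, a log2 fold change of 1.03 ± 0.22 SE. SLC38A2, the SNAT2 carrier of small neutral amino acids, passed with 0.63 ± 0.21 SE, and the arginine and lysine carrier gene SLC7A1 did not (0.46 ± 0.22 SE).

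Aminoacyl-tRNA synthetases, which load amino acids onto tRNA, held the member with the smallest adjusted p between the lines, GARS1. AARS1, for alanine, had 867, 283 and 557 CPM in D425 shCRX libraries and 650.2, 655 and 966 CPM in D425 controls, against 188 and 188 CPM in HD-MB03 shCRX libraries and 191 and 157 CPM in HD-MB03 controls. GARS1, for glycine, had 745, 385 and 559 CPM in D425 shCRX libraries and 627, 641 and 851 CPM in D425 controls, against 252 and 235 CPM in HD-MB03 shCRX libraries and 259 and 218 CPM in HD-MB03 controls. SARS1, for serine, had 643, 208 and 514 CPM in D425 shCRX libraries and 558, 545 and 828 CPM in D425 controls, against 173 and 157 CPM in HD-MB03 shCRX libraries and 140.3 and 164 CPM in HD-MB03 controls. In all 3 the lines did not overlap, with log2 fold changes of 1.86 ± 0.27 SE, 1.39 ± 0.19 SE and 1.77 ± 0.28 SE and adjusted p-values of 0.000181, 9.32e-05 and 0.000303. WARS1, for tryptophan, passed with 1.70 ± 0.42 SE although D425 shCRX replicate 2 fell within the HD-MB03 range. MARS1, for methionine, did not pass (-0.12 ± 0.22 SE, 95% interval -0.59 to 0.35).

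**Figure D2:**
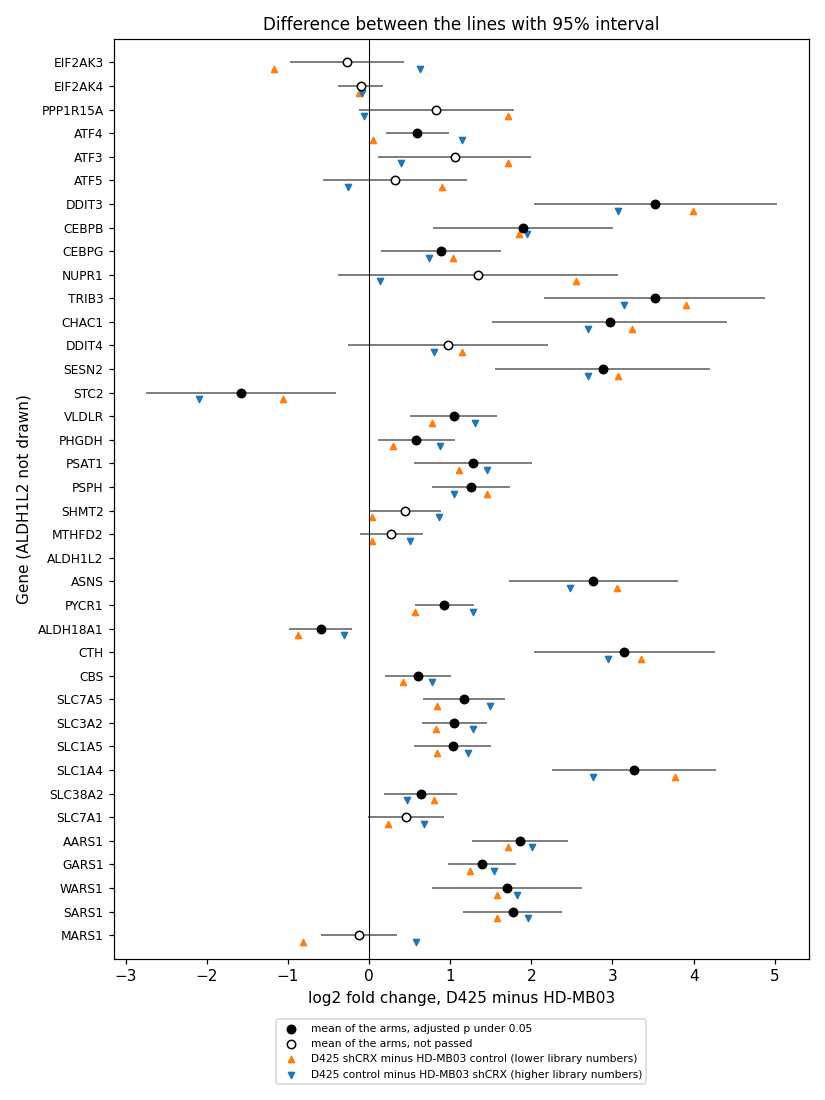
Log2 fold change between the lines (D425 minus HD-MB03) for 37 genes in the mean of the arms (circles, filled where the adjusted p is under 0.05, with 95% intervals) and within each library-number set (triangles). DDIT3 and TRIB3 lie farthest to the right at 3.53 and 3.52, and STC2 lies to the left at -1.58. The orange and blue triangles of most genes fall on the same side of 0. Orange is D425 shCRX minus HD-MB03 control and blue is D425 control minus HD-MB03 shCRX, so the arm differs along with the line.

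Within each set of library numbers fewer members passed between the lines. These comparisons set opposite arms of the lines against each other, so line and arm change at once. Their average is the comparison in the mean of the arms, and they are no separate check of it. In the lower numbers, D425 shCRX against HD-MB03 controls, 12 members were higher and 1 was lower, against 30.7% of all genes called in either direction. The count of 13 of 38 is near that share. By sign, 32 members were positive and 6 negative there, with a median log2 fold change of 0.97, against 0.11 for all genes. Of the 27 calls in the mean of the arms, 14 were lost there: ALDH1L2, ATF4, CBS, CEBPB, CEBPG, PHGDH, PSAT1, PYCR1, SLC1A5, SLC38A2, SLC7A5, STC2, VLDLR and WARS1. In the higher numbers, D425 controls against HD-MB03 shCRX, 22 were higher and 2 lower, against 31.2%. Of the 4 members with the highest log2 fold changes in the mean of the arms, DDIT3 had a log2 fold change of 3.99 in the lower numbers and 3.07 in the higher numbers, TRIB3 3.90 and 3.14, SLC1A4 3.77 and 2.76, and CTH 3.35 and 2.95. ATF4 differed by 0.05 in the lower numbers and by 1.14 in the higher numbers, and it passed in the higher ones. Between the controls of both lines alone, 20 members were higher and 1 was lower in D425, with 34.3% of all genes called. Leaving out each of the 10 libraries in turn, 18 of the 27 calls held every time, and the count ran from 19 to 32, with 19 without HD-MB03 shCRX replicate 1 and 32 without D425 shCRX replicate 2. The 9 that were lost at least once were ALDH18A1, ALDH1L2, ATF4, CBS, CEBPB, CEBPG, PHGDH, SLC38A2 and STC2.

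The genes around the module were counted in the same contrast, where 24.4% of all genes were higher and 21.6% lower in D425. Of 25 other ATF4 and CHOP targets tested, 12 were higher and 1 lower in D425, with a median log2 fold change of 0.91. SLC7A11, the cystine carrier xCT, was higher by 4.14 ± 0.65 SE, the adrenomedullin-related peptide gene ADM2 by 3.70 ± 0.96 SE and the heme oxygenase gene HMOX1 by 2.41 ± 0.65 SE. SNAI2, a zinc finger factor, was the 1 that was lower, with 0 counts in D425 shCRX and 9 in D425 controls, against 540 in HD-MB03 shCRX and 40 in HD-MB03 controls. Like ALDH1L2, SNAI2 passed the filter on low counts only through HD-MB03, where it was high, so the direction of its call was set by the filter. Of 18 other tRNA synthetases and partners, 8 were higher and 0 lower, led by CARS1 for cysteine (1.95 ± 0.26 SE), NARS1 for asparagine (1.61 ± 0.20 SE), YARS1 for tyrosine (1.29 ± 0.18 SE) and TARS1 for threonine (0.81 ± 0.14 SE). No member of that list was lower at an adjusted p under 0.05, and 9 of its 18 genes had an unadjusted p under 0.05 in either direction, against 53.0% of all genes.

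The neighbouring pathways were counted likewise, and the shares of all genes to set beside them are again 24.4% higher and 21.6% lower in D425. Of 17 genes of the eIF2 axis, 5 were higher and 3 lower in D425, with a median of 0.03. The interferon-induced kinase PKR (EIF2AK2) was lower in D425 (-2.06 ± 0.21 SE), and DNAJC3, the co-chaperone that inhibits eIF2 kinases, was higher by 1.99 ± 0.22 SE. The eIF2 subunit genes EIF2S2 and EIF2S3 were higher by 0.68 ± 0.18 SE and 0.59 ± 0.17 SE. Of 18 other amino acid transporters, 8 were higher and 3 lower. SLC43A1, a leucine carrier, was higher by 2.38 ± 0.28 SE. The glutamate carrier gene SLC1A1 was lower, with 1 count in D425 shCRX and 13 in D425 controls, against 181 in HD-MB03 shCRX and 27 in HD-MB03 controls. SLC1A1 also passed the filter only through HD-MB03, which set the direction of its call. The mitochondrial glutamate carrier SLC25A22 and the neutral amino acid exchanger SLC7A8 were lower (-2.63 ± 0.18 SE and -2.42 ± 0.26 SE). Of 27 other amino acid and one-carbon enzymes, 8 were higher and 8 lower, with a median of -0.01. CTSC, a lysosomal peptidase, and ASL, of the urea cycle, were higher (2.59 ± 0.15 SE and 1.16 ± 0.27 SE), and MTR, methionine synthase, was lower (-1.11 ± 0.14 SE). Of 22 genes of the XBP1 and ATF6 branches of the unfolded protein response, 7 were higher and 1 lower, among them HERPUD1 (2.69 ± 0.46 SE), HYOU1 (1.79 ± 0.24 SE), SDF2L1 (1.58 ± 0.29 SE) and XBP1 itself (1.58 ± 0.34 SE). Of 19 genes of amino acid sensing by mTORC1, 6 were higher and 3 lower, with the Rag GTPase RRAGC (1.53 ± 0.35 SE), the sestrin SESN3 (1.36 ± 0.23 SE) and the Ragulator subunit LAMTOR1 (1.20 ± 0.19 SE) higher and RRAGD, another Rag GTPase, lower (-2.58 ± 0.25 SE).

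Promoters of the module were read for the site that ATF4 uses. ATF4 and a C/EBP protein bind a composite element called CARE, written here as the core TGATGCAA and, allowing any base at the sixth place, as TGATGNAA, which contains the core. Windows from 250 bases before to 50 after the start were taken from RefSeq (GRCh38.p14) and searched on both strands. Of the 38 genes 33 had at least 1 window, and NUPR1, PSPH, SHMT2, ALDH1L2 and PYCR1 had none. The core was found in 6 of the 33 genes (18.2%) and in 1.08% of all 27305 genes, and the looser form in 11 (33.3%), against 4.46%. The looser form added ASNS, ATF3, GARS1, SLC3A2 and SLC7A1. The cAMP response element TGACGTCA was found in 1 gene, PPP1R15A (3.03%), against 2.25% of all genes. The endoplasmic reticulum stress element ERSE was found in 0 of the 33, against 0.0916% of all genes. Many members are known ATF4 targets, so the share of CARE is a description of the genes chosen. The stretches around the core are shown because they hold the element that these genes have in common, in capitals (TGATGCAA or its reverse complement TTGCATCA), each 5′ to 3′ on the strand of its gene.
AARS1, chr16:70289641-70289738, minus strand: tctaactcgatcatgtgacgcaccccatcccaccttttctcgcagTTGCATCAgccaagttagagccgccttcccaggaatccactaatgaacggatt
CEBPG, chr19:33374026-33374123, plus strand: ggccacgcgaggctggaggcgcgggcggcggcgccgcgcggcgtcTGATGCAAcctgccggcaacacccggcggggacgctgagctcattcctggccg
CHAC1, chr15:40953221-40953314, plus strand: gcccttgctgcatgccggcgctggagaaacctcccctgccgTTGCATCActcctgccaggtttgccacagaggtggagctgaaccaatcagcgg
MARS1, chr12:57488019-57488087, plus strand: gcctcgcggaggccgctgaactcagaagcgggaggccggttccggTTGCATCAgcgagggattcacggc
SLC1A4, chr2:64989347-64989418, plus strand: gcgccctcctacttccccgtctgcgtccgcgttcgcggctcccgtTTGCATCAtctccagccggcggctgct
SLC1A5, chr19:46784859-46784956, minus strand: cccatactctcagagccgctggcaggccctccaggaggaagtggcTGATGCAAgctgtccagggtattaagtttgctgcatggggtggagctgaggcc

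The core began 187 bases before the start in AARS1, 42 in CEBPG, 209 in CHAC1, 4 in MARS1, 7 in SLC1A4 and 97 in SLC1A5. Of these 6 genes, AARS1, CEBPG, CHAC1, SLC1A4 and SLC1A5 were higher in D425 than in HD-MB03, by log2 fold changes between 0.89 and 3.27. MARS1 holds the same 8 letters and had a log2 fold change of -0.12, while DDIT3, TRIB3 and CTH, which differed by more than 3 on that scale, do not hold them in this window. A match gives letters in a window and says nothing of binding.

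Between the arms of D425, 1 of the 38 genes passed, and 2.97% of all genes tested did, 1.61% higher and 1.37% lower in shCRX. EIF2AK3, the gene of the kinase PERK, had 14.7, 6.81 and 7.15 CPM in D425 shCRX libraries and 39.0, 21.3 and 56.6 CPM in D425 controls. All 3 shCRX libraries lay below all 3 controls, with a log2 fold change of -1.97 ± 0.41 SE (95% interval -2.86 to -1.08, edgeR adjusted p = 0.0246). The levels rested on 160, 33 and 28 counts in the shCRX libraries and on 698, 264 and 624 in the controls. EIF2AK3 shares 781 exon bases with an antisense transcript, whose reads cannot be told apart without strand. The call was lost without D425 parental 1, without the vector library, without shCRX replicate 2 and without shCRX replicate 3, and with the parental or the vector library alone as control. Summed markers of the neuronal lineage also differed between these arms, 65.9 to 94.0 CPM in shCRX and 211 to 273 CPM in controls, as did those of Group 3 above, and their part in the result was not tested. Of the neuronal markers, 2 of 5 lay at or under 3 counts in every library.

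The other 37 members did not pass in D425, and 7 of the 38 had an unadjusted p under 0.05, against 17.3% of all genes. ATF4 was closest, with all shCRX libraries below all controls (-0.77 ± 0.22 SE, adjusted p = 0.083), and DESeq2 called it together with EIF2AK3. The one-carbon enzyme MTHFD2 (-0.68 ± 0.23 SE) and the proline enzyme PYCR1 (-0.56 ± 0.21 SE) also had no overlap of the arms, with adjusted p-values of 0.133 and 0.18. In all, 6 members had every shCRX library below every control and 0 had every shCRX library above, against 11.5% of all genes in each direction. NUPR1 and PPP1R15A pointed up in shCRX (2.30 ± 0.81 SE and 1.21 ± 0.51 SE) without passing, both with their highest level in replicate 1. The median log2 fold change of the module was -0.23, and that of all genes was 0.02. That median was -0.65 without shCRX replicate 1 and -0.03 without shCRX replicate 2, so 1 library moved it in either direction.

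**Figure D3:**
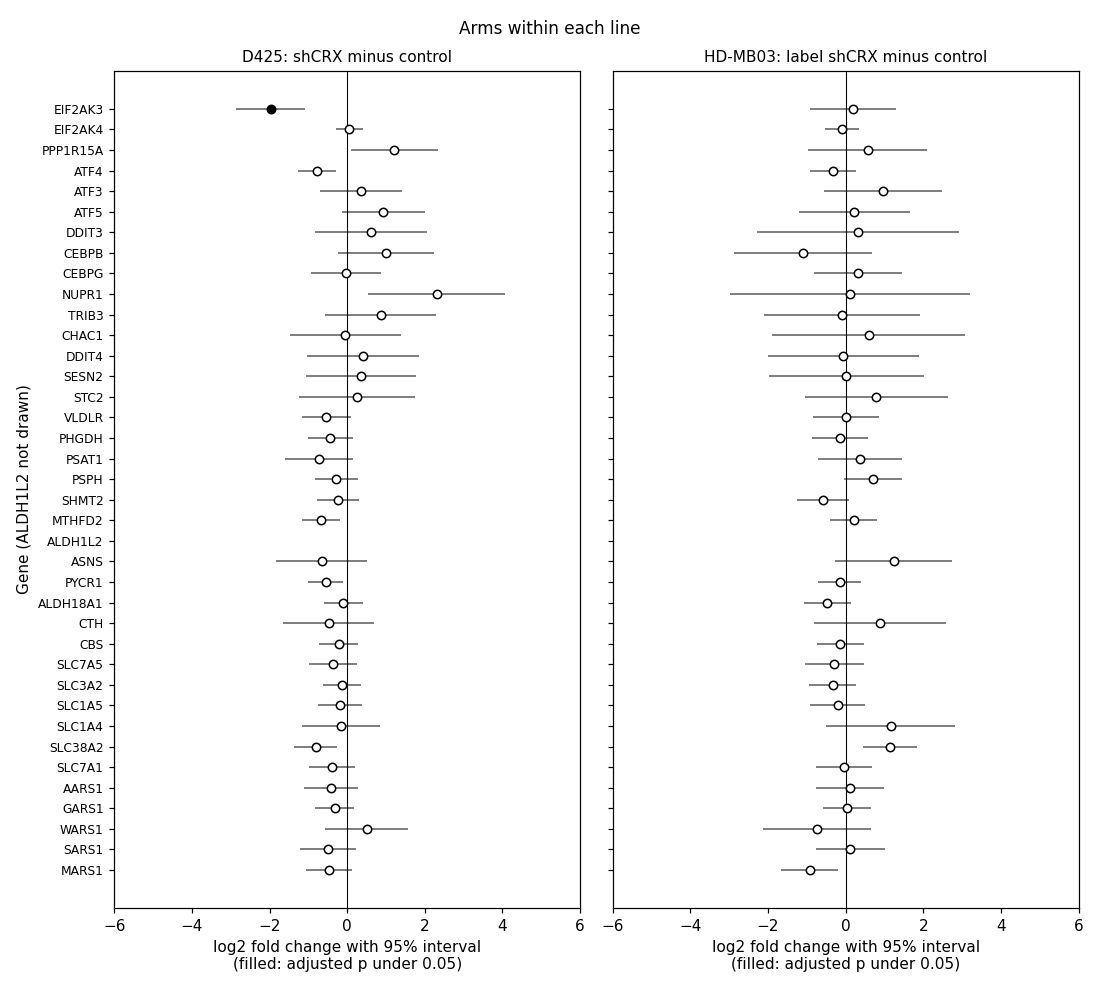
Log2 fold change of shCRX minus control for 37 genes in D425 (left) and in HD-MB03 (right), with 95% intervals. The only filled symbol is EIF2AK3 in D425 at -1.97. Intervals of the stress effectors DDIT3, TRIB3, CHAC1, DDIT4 and SESN2 span 0 widely in both lines.

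In HD-MB03 0 of the 38 genes passed between the libraries labelled shCRX and the controls, and 1.51% of all genes did. At an unadjusted p under 0.05 there were 2, against 17.2% of all genes, limma-voom called 0 and DESeq2 called 1, SLC38A2. Those with an unadjusted p under 0.05 were SLC38A2 (1.14 ± 0.32 SE, adjusted p = 0.104) and MARS1 (-0.93 ± 0.34 SE, adjusted p = 0.191). MARS1 had 522 and 542 CPM in the libraries labelled shCRX and 1186 and 840.5 CPM in the controls. Groups of 2 libraries that do not overlap were frequent, 11 members higher and 5 lower, and 30.5% and 21.8% of all genes were likewise separated. In the mean of the lines 0 of 38 passed, with 0.225% of all genes called. There, 4 members had an unadjusted p under 0.05 (ATF4, EIF2AK3, MARS1 and PYCR1), against 13.2% of all genes, and both DESeq2 and limma-voom called 0.

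The response to shCRX differed between the lines for 1 member, SLC38A2, and for 4.16% of all genes. At an unadjusted p under 0.05 it did for 4 members and 21.2% of all genes. SLC38A2 had 235, 162 and 167 CPM in D425 shCRX libraries and 290.0, 224 and 475 CPM in D425 controls. In HD-MB03 it had 242 and 234 CPM in shCRX libraries and 99.8 and 116 CPM in controls. The arms of D425 overlapped, with shCRX lower in the mean, and those of HD-MB03 did not, with shCRX higher. The responses had opposite signs, -0.81 ± 0.26 SE in D425 and 1.14 ± 0.32 SE in HD-MB03, neither past the threshold alone. The difference was -1.95 ± 0.41 SE (95% interval -2.85 to -1.06, edgeR adjusted p = 0.0212). A difference between the sets of library numbers falls wholly on this contrast and cannot be told apart from it. The call was lost without D425 shCRX replicate 3, without any one of the 4 HD-MB03 libraries, with the vector or the parental libraries alone as control, and after correction for GC content and length (-1.32, adjusted p = 0.101). EIF2AK3 had a difference of -2.16 ± 0.65 SE with an adjusted p of 0.0842.

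Among genes around the module, few passed between arms. CEBPD, another C/EBP gene, had 4.79, 6.81 and 7.15 CPM in D425 shCRX libraries and 0.671, 0.403 and 0 CPM in D425 controls, against 0.357 and 0.358 CPM in HD-MB03 shCRX libraries and 3.12 and 10.2 CPM in HD-MB03 controls. The fitted log2 fold changes were 3.96 ± 0.70 SE in D425 and -4.16 ± 0.91 SE in HD-MB03. CEBPD passed the filter on low counts only through D425 shCRX and HD-MB03 controls, where it was high. The HD-MB03 controls were also the shallowest libraries, so these fold changes rest on few counts. The groups where it was high are also the lower set of library numbers, and those where it was near 0 the higher set. Set and arm cannot be told apart here. In D425, SLC7A8 rose (2.66 ± 0.35 SE), and the glutamate carrier SLC1A3 and the synthetase TARS1 fell (-1.50 ± 0.28 SE and -0.72 ± 0.17 SE). In the difference between the lines the glycine cleavage gene GCSH also passed (2.39 ± 0.61 SE). Of the 17 genes of the eIF2 axis, the 22 of the XBP1 and ATF6 branches and the 19 of amino acid sensing, 0 passed edgeR's test in D425, against 2.97% of all genes. At an unadjusted p under 0.05 there were 4, 0 and 2 of them, against 17.3% of all genes.

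**Figure D4:**
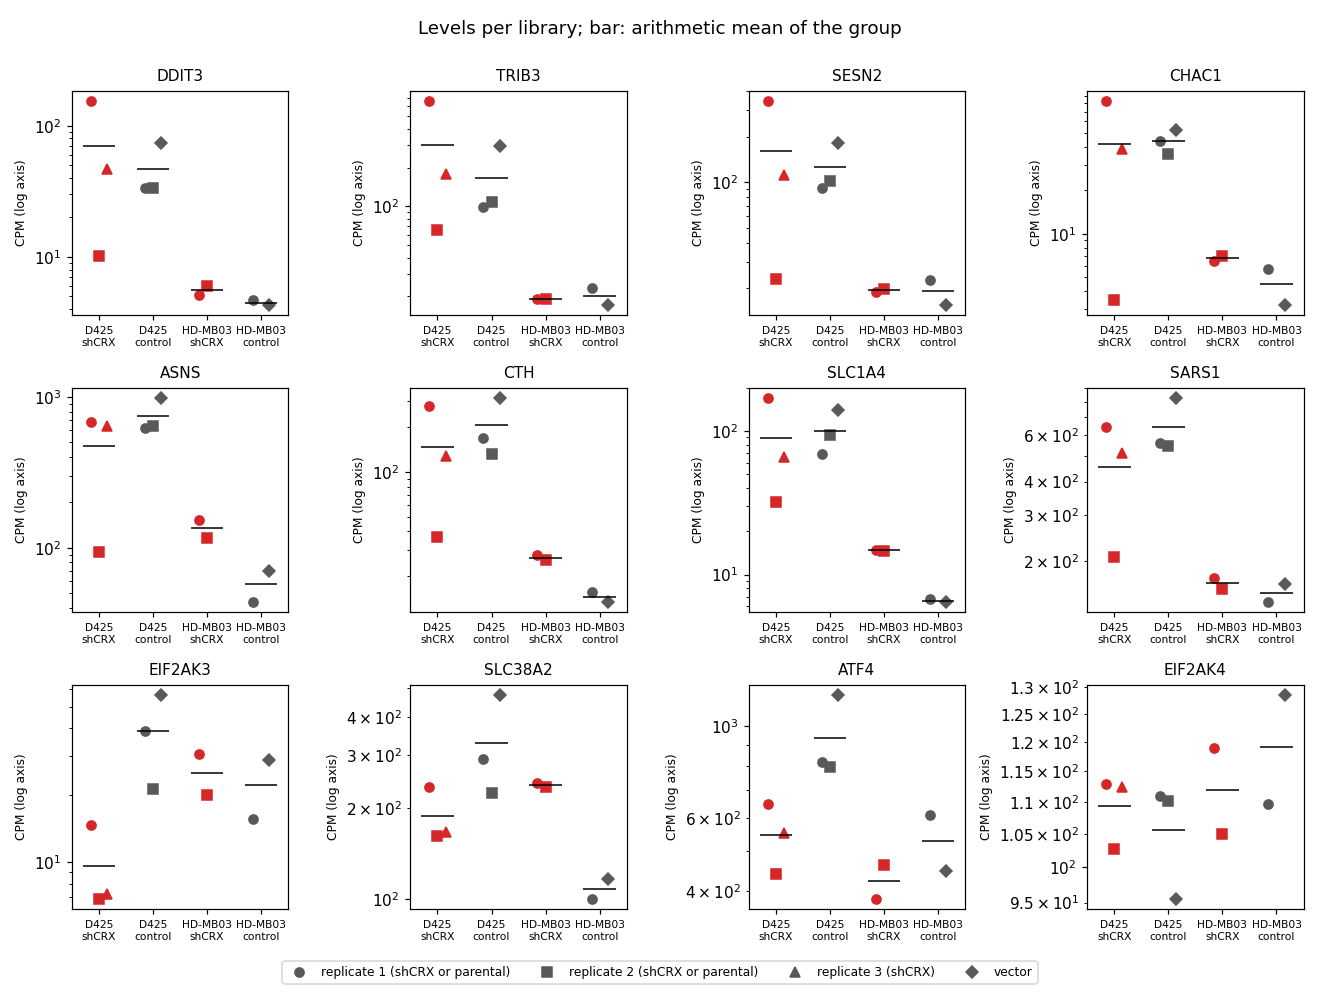
Levels of 12 genes in CPM (log axes, each panel with its own range) in the 4 groups, one symbol per library, with red for shCRX and grey for control and a bar at the arithmetic mean. In DDIT3, TRIB3, SESN2, CHAC1, ASNS and CTH the D425 shCRX symbols spread over a wide range, from replicate 1 at the top to replicate 2 at the bottom. EIF2AK3 and SLC38A2 are the genes called between arms or in the difference, and EIF2AK4 is nearly level.

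The 3 D425 libraries labelled shCRX did not share a level of the module. Replicate 2 was the lowest of the 6 D425 libraries for 32 of the 38 genes, whereas it was the lowest for 24.5% of all genes tested. Replicate 1 was the highest for 16 members and the vector library for 17, against 19.5% and 18.7% of all genes. Replicate 2 was at least 2-fold below replicate 1 for 23 members on the log2(CPM + 1) scale and at least 2-fold above it for 0, while 8.55% of all genes were that much below and 5.59% that much above. The median difference was -1.22 for the 38 genes and -0.02 for all genes. Against replicate 3, replicate 2 was at least 2-fold lower for 16 members and higher for 0 (5.81% and 2.45% of all genes), with a median of -0.80. These are single libraries, so no test is given.

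The spread was widest in the stress effectors and the transcription factors. TRIB3 had 661.7, 66.1 and 177.5 CPM in shCRX replicates 1, 2 and 3, DDIT3 had 154.9, 10.1 and 46.7, and SESN2 had 344.1, 23.1 and 111.3. CHAC1 had 83.1, 3.51 and 38.3 CPM in the same libraries and DDIT4 had 83.9, 3.51 and 43.4. The median difference of replicate 2 minus replicate 1 was -4.03 for the 6 stress effectors, -2.44 for the 7 transcription factors, -1.61 for the 5 synthetases, -1.14 for the 6 serine and one-carbon enzymes and -0.71 for the 6 transporters. ASNS was low in replicate 2 alone, with 94.0 CPM, against 686.7 in replicate 1 and 640.3 in replicate 3. ALDH18A1 went against the rest, with 141.5, 234.4 and 229.6 CPM. CRX did not follow this spread, with 20.3, 20.9 and 25.3 CPM.

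**Figure D5:**
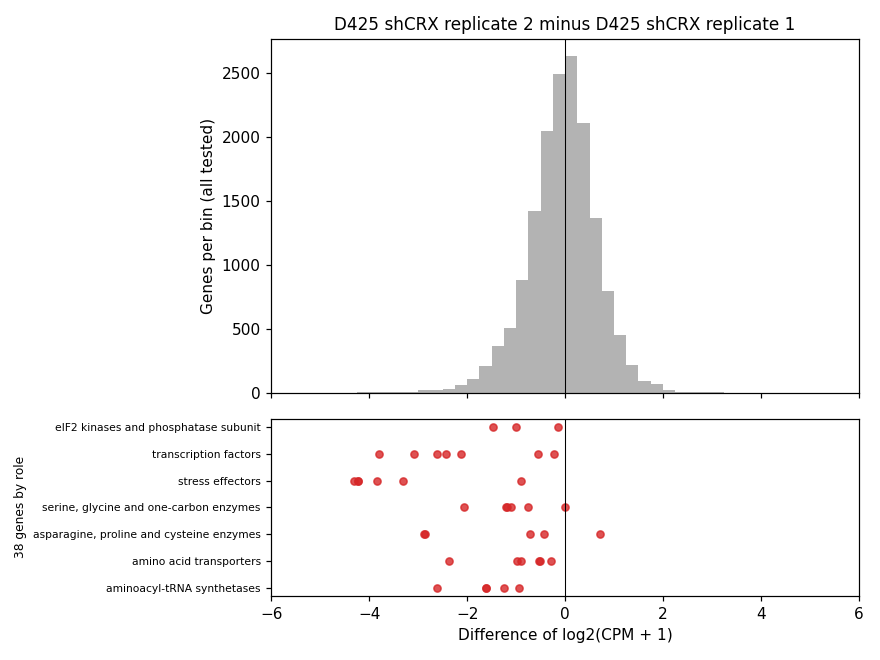
Difference of log2(CPM + 1) between D425 shCRX replicate 2 and replicate 1, as a histogram of all 16006 tested genes (top, genes per bin) and for the 38 genes by role (bottom, one point per gene). The histogram centres on 0, and most of the 38 points lie left of it, with stress effectors near -4.

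Pathway lists outside the module shared the spread in part. Of the 25 other ATF4 and CHOP targets, 14 were at least 2-fold lower in replicate 2 than in replicate 1 and 1 was higher. In 16 the lowest D425 level was there, against 24.5% of all genes. Of the 18 other synthetases and partners 13 had their lowest level in replicate 2, although 1 differed by 2-fold or more. In the eIF2 axis 7 of 17, in the XBP1 and ATF6 branches 5 of 22 and in amino acid sensing 1 of 19 were lowest there. For the XBP1 and ATF6 branches that is near the 24.5% of all genes. Of the same lists 1, 6 and 1 genes were at least 2-fold lower in replicate 2 than in replicate 1, against 8.55% of all genes. At least 2-fold higher were 0, 1 and 0 of them, against 5.59% of all genes. Of the 27 other amino acid and one-carbon enzymes, 3 were at least 2-fold lower and 5 at least 2-fold higher in replicate 2 than in replicate 1, with a median difference of 0.16. In this list 7 were lowest and 7 highest there, near the 24.5% and 23.5% of all genes. ASS1, argininosuccinate synthetase of arginine synthesis, is a gene of that list chosen after its values were seen, and it goes against the list's median. It had 663, 25.6 and 664.8 CPM in shCRX replicates 1, 2 and 3 and 697, 872.5 and 938.6 CPM in the D425 controls. Replicates 1, 2 and 3 held 9533407, 4729435 and 3640723 counted reads and 5.12%, 6.88% and 7.99% of reads not aligned. The part of depth and alignment in the spread was not tested.

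Spread of this kind was smaller in the other groups. The D425 parental libraries differed by a median of 0.06 over the 38 genes, with 0 members 2-fold lower or higher in replicate 2, against 1.37% and 2.96% of all genes. The vector library lay above parental replicate 1 by a median of 0.45, with 6 members at least 2-fold higher and 0 lower, against 1.79% and 0.900% of all genes. HD-MB03 shCRX replicate 2 minus replicate 1 had a median of 0.01, and the HD-MB03 vector minus parental library had -0.21. With shCRX replicate 2 left out, 0 members passed between the arms of D425 and 2 differed in response between the lines, CEBPB and SLC38A2. With shCRX replicate 1 left out, EIF2AK3 passed in D425, and EIF2AK3, SLC1A4 and SLC38A2 differed in response.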

How the data were processed

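RNA of 10 libraries was sequenced from poly(A)-enriched RNA (TruSeq kit). Whole-number counts per Ensembl gene were deposited by the authors, 1 table per library. The tools HISAT2, HTSeq, bcl2fastq and DESeq2 and the build GRCh37 (hg19) are named per the submitters' processing notes. Tool versions and strand setting: not given in the sources used here. Each table ends in 5 summary rows, which hold 20.7% to 49.5% of its reads and entered neither the library sizes nor any test. Of 57820 identifiers, 51996 had a symbol. The 37 mitochondrial genes had 0 counts.

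The members and lists were chosen with earlier results of these data known. Genes were filtered with filterByExpr over 4 groups of line and arm, scaled by TMM and tested with edgeR 4.0.16 (R 4.3.3, quasi-likelihood, robust, two-sided), with Benjamini-Hochberg adjustment over all 16006 genes tested and a threshold of 0.05. Residual degrees of freedom were 6. CPM are counts per 1000000 of the TMM-scaled library size, while floors of 3 counts (0.166 to 1.53 CPM) use library totals and cover counting error only. DESeq2 1.42.0, limma 3.58.1 (voom) and the settings listed in the closing section were alternatives. In data simulated for the D425 comparison over 16006 genes, edgeR called 40 of 100 genes changed by 1 and 94 of 100 changed by 2 on the log2 scale. The changed genes were drawn only from those above a minimum mean level, and each gene had the same spread in every group. These shares therefore do not cover genes at low levels, such as NUPR1 and ALDH1L2, or a spread particular to the shCRX libraries. All 38 members were accounted for. By rule, the 14 with the smallest adjusted p among those called were given in full, as were up to 4 called genes per list and comparison. Replicate numbers come from the titles and are not said to mark a shared culture. Exon overlaps come from GENCODE v29 and promoters from RefSeq. No libraries held identical counts. The values of 1 gene of a pathway list are not reported here.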

Additional observations from a re-analysis of the deposited data

Results flagged for a closer look

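The response to shCRX differed between the lines (D425 minus HD-MB03, edgeR interaction contrast, log2 scale) for 6 of the named genes. Among the 38 members it was SLC38A2 (-1.95). Around the module it was CEBPD (8.12), SLC1A3 (-2.14), SLC7A8 (3.44) and GCSH (2.39), and the targeted gene CRX differed as well (-2.14). The fitted value of CEBPD rests on levels between 0 and 10.2 CPM, and D425 vector had 0 counts of it. The sets of library numbers are opposed between the lines in this contrast, so their part cannot be told apart from the response to shCRX.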

How the results depend on the processing

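The counts of members called are set beside 27 (lines), 1 (D425 arms), 0 (HD-MB03 arms), 0 (mean of the lines) and 1 (difference). Between the lines, 13 passed within the lower library numbers, where the arm differed along with the line, and other settings gave 21 to 29. In D425, 6 passed with no filter on low counts, 2 in DESeq2, 2 with GC content and length correction, and 0 with the vector or the parental libraries alone as control. In HD-MB03, 2 passed with no filter and 1 in DESeq2. In the mean, 2 passed with no filter. In the difference, 3 passed with no filter and 2 in DESeq2, and 0 with GC content and length correction or with the vector or the parental libraries alone. Leaving out 1 library at a time gave 19 to 32 (lines), 0 to 2 (D425), 0 to 1 (HD-MB03), 0 to 0 (mean) and 0 to 3 (difference). The cause of these shifts was not tested. Shares of all genes called are not given for the other methods and settings or for the fits with a library left out, here and above. A setting may call more genes of any kind, so these counts are not a result about the members. No named member's called value reversed.

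With the replicate number as a block, 28, 1, 0, 0 and 2 members passed in these comparisons. The numbers were not shown to pair the samples: the correlation of same-numbered deviations was 0.01 over the D425 pairs.

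CRX in D425 (-1.10) lost its call with library totals (-0.96), limma-voom (-1.05), thinning to 1956353 reads (-0.97), and the vector (-1.58) or parental libraries alone (-0.82) as control. Leaving out 1 library gave -1.38 to -0.81, and the call was lost in 9 of these 10 fits. Scaling by library totals moved the median gene by 0.133 in D425 and 0.111 between the lines (log2). Depth was lowest in the HD-MB03 controls, where 3 counts are 1.44 and 1.53 CPM.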
